A study of Mus musculus with 4 samples.

Results

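The heparan sulfate genes were followed in mouse astrocyte-enriched cultures (AECs) with and without oxygen–glucose deprivation (OGD). The set held 37 genes of the 29676 gene names on the array, read by 53 of its 39429 probes. It comprised 27 genes for enzymes that build, modify or cut heparan sulfate and 10 genes for the glypican and syndecan core proteins. Members were taken by gene symbol, with every probe carrying that symbol. The set was chosen by pathway, but selected on the measured fold changes between untreated and OGD-treated cultures in that the decrease of *Ndst3* was already known when it was proposed. The differences and calls of the members are therefore given as a description, with no p-value printed for a member and no test of the set.

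The study asked which transcripts of AECs change under OGD, a culture model of the loss of oxygen and glucose in brain ischemia. Untreated AECs (2 arrays) were compared with AECs kept under OGD for 15 h (2 arrays). According to the study's methods, the cells came from the cerebral cortices of ICR mouse pups in the first days after birth. Several pups of a litter were picked at random, whatever their sex. Both groups had been exposed to PLX3397 (pexidartinib), an inhibitor that depletes microglia, before the experiment, and the labels name no transgene or engineered allele. The AECs are therefore mixed cultures, in which oligodendrocytes and possibly NG2 glia remain beside astrocytes. Each array measured the total RNA of 1 sample with 1 dye. The methods state that wells were seeded from independent cultures of different pups, but the labels do not say which culture each array came from, so p-values measure the spread between these samples, which may be technical.

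Heparan sulfate is a long sugar chain attached to serines of core proteins, and it binds growth factors, morphogens and proteases at the cell surface and in the matrix. Chain growth starts from a linkage of xylose, galactose and glucuronic acid, which is extended by exostosins with alternating N-acetylglucosamine and glucuronic acid. N-deacetylase/N-sulfotransferases then replace acetyl by sulfate groups along stretches of the chain, an epimerase turns glucuronic into iduronic acid, and O-sulfotransferases add sulfate at the 2-O, 6-O and 3-O positions. In brain, astrocytes carry glypicans and syndecans and secrete some of them, among which glypican 4 is known for promoting synapse formation.

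The signals of the 2 groups stood on different levels. The 75th percentile of the processed signal, in the scanner's linear units, was 2135 and 2164 for untreated AECs, against 887 and 776 for AECs after OGD. Between 73.0% and 73.7% of spots were well above background in untreated AECs, and between 64.5% and 66.2% after OGD. Values were divided by the 75th percentile of their array and are given as log2, as were fold changes (OGD over untreated, with the standard error of the limma fit), so a member called higher can have a lower raw signal after OGD. When the arrays were scaled by 9 spike-in probes instead, every fold change was lower by 1.29 on the log2 scale, and 92.7% of all genes had lower values after OGD. On that scale 31 of the 33 members tested were lower after OGD, and only *Hs3st5* (1.48) and *Gpc3* (0.028) were not. The spike-in probes themselves differed between the groups by -0.75 to 0.28 on the log2 scale. The sign of a member near 0 on that scale is therefore not settled. Each "higher" below thus means higher relative to the 75th percentile, and the scaling that reflects the RNA per cell was not tested.

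Of the 37 members, 33 were tested, that is, had a probe that passed the scanner's test for signal well above background on both untreated or both OGD arrays, and 32 of them passed it on each of the 4 arrays. A gene was represented by its brightest probe, and it was called at an adjusted p under 0.05 over all probes in limma. By this description 13 members were called higher after OGD, 10 were called lower and 10 were not called. The share called was 69.7%, beside 64.8% of the 21068 genes tested, 37.1% being called higher and 27.8% lower over all genes, and nothing is read from the members' counts. The median log2 fold change was 0.057 over the members and 0.16 over all genes tested. Among enzymes 7 of 23 tested were called higher and 9 lower, with a median of -0.093. Among core proteins 6 of 10 were called higher and 1 lower, with a median of 0.59. In 30 of the 33 tested members the normalized values of the 2 groups did not overlap, the exceptions being *Ext1*, *Extl3* and *Sdc3*. Over all genes with a value on every array the share without overlap was 84.8%, and nothing is read from the members' count. In these bulk cultures, fewer cells of a type and less RNA per cell cannot be told apart.

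**Figure D1:**
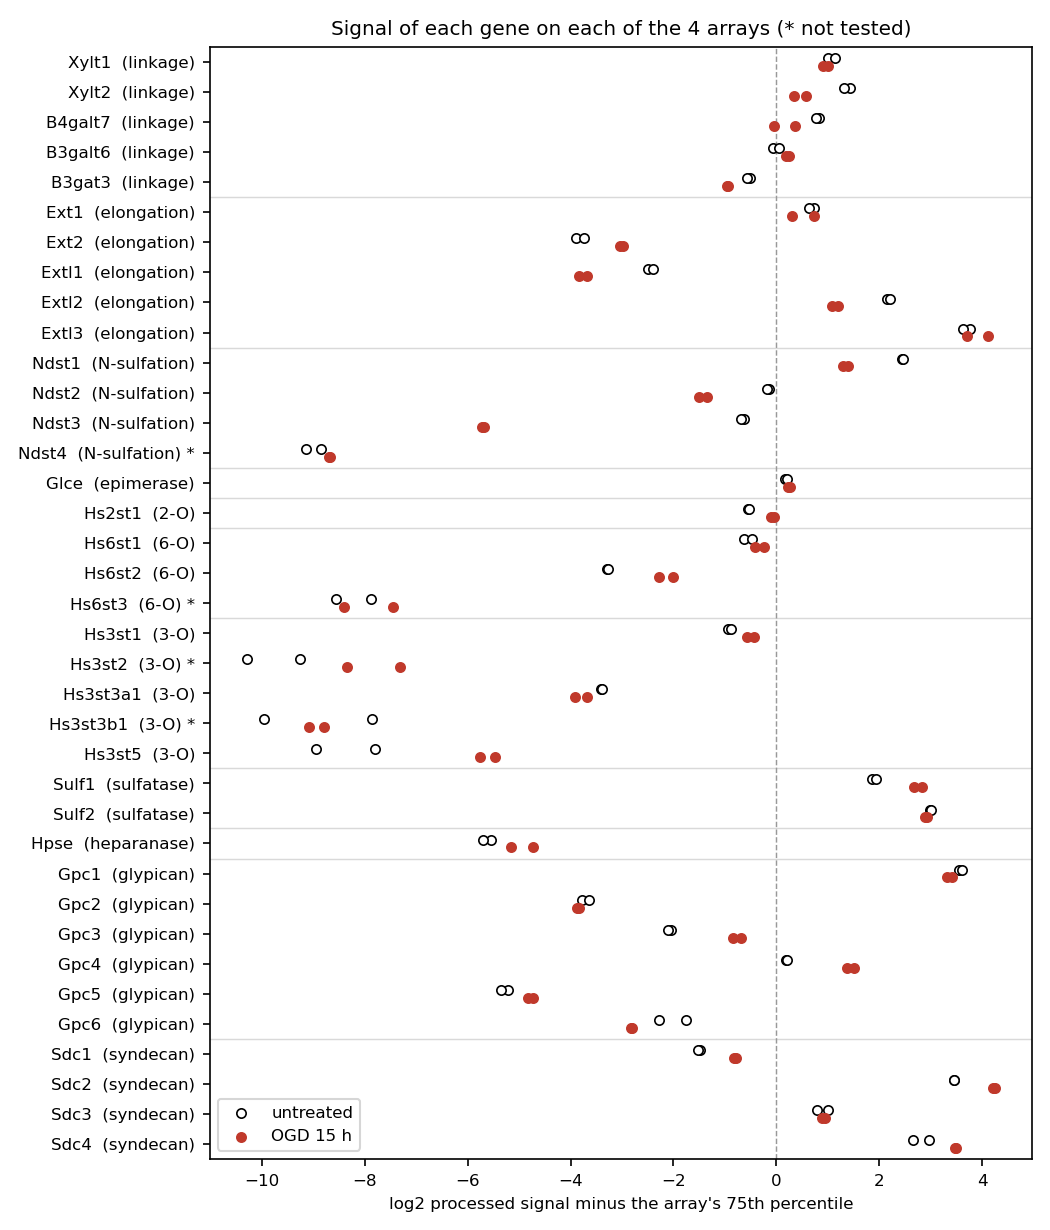
Normalized signal of each of the 37 genes on each of the 4 arrays, as log2 processed signal minus the 75th percentile of the array (horizontal axis); open circles are untreated and filled circles OGD-treated AECs, and genes with an asterisk were not tested. *Ndst3* stands apart, with both untreated arrays near -0.66 and both OGD arrays near -5.70, and position along the axis is not comparable between genes because each has its own probe.

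N-deacetylation and N-sulfation, the step that opens the chain for all later sulfation, holds the gene whose decrease was known when the set was proposed. All 3 tested N-deacetylase/N-sulfotransferases were called lower, beside 27.8% of all genes tested, with a median of -1.27. Nothing is read from this count, since *Ndst3* is among the 3 and *Ndst1* was called lower at 1 of its 3 probes. *Ndst3* had processed signals of 1388 and 1342 in untreated AECs and 16.8 and 15.1 after OGD. Both OGD arrays lay far below both untreated arrays while staying well above background. The normalized log2 value went from -0.66 ± 0.049 to -5.70 ± 0.028 (SD, n = 2 each), which is a log2 fold change of -5.05 ± 0.079 (SE), or 33.1-fold lower. Among all genes tested, 0.56% were called lower by more than 10-fold, and *Ndst3* was the only member past that limit, from which nothing is read because its value was known. With the background estimated by the normexp model in place of the scanner's own correction, the log2 fold change of *Ndst3* was -2.92, and it was -6.34 with spike-in scaling.

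*Ndst2*, the N-deacetylase/N-sulfotransferase best known from mast cell heparin, had processed signals of 1945 and 1920 in untreated AECs and 314 and 305 after OGD. Both OGD arrays were lower, and the log2 fold change was -1.27 ± 0.093. *Ndst1*, the broadly expressed family member, had 11598 and 11908 untreated and 2176 and 2033 after OGD at its brightest probe, where the difference was -1.11 ± 0.082. Its other probes did not follow that value. Its most upstream probe read 129 and 131 untreated and 109 and 115 after OGD, a log2 fold change of 1.16 ± 0.12 that was called higher, and the probe between them gave -0.24 ± 0.11 and was not called. The mean over its probes was -0.066, so the decrease of *Ndst1* belongs to 1 probe. *Ndst4* was not well above background on any array with any of its 3 probes, the brightest of which read between 1.88 and 4.61.

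Since the decrease of *Ndst3* rests on 1 probe, the first 30 of the 60 bases of that probe are shown with those of *Ndst2*, as printed in the scanner files with mm9 positions. The bases shown lie at chr3:123229264-123229293 for *Ndst3* and chr14:21543288-21543317 for *Ndst2*, both on the minus strand. No capitals are used, because no part of these probes was singled out.
Ndst3 probe: gacttataatacggggcttcctcaggaaga
Ndst2 probe: gaggggatccatctctttcccatagttttg

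The linkage genes followed, since every chain begins with them. Of the 5 genes 3 were called lower and none higher, beside 27.8% and 37.1% of all genes, and the median was -0.40. Of these calls, *B4galt7* and *B3gat3* were lost without either untreated array (-0.62 and -0.36 without replicate 1, -0.68 and -0.43 without replicate 2). That of *B4galt7* was also lost with the methods' t-test and without the filter on dim probes. Here and below, a fit without 1 array takes its spread from the other group and assumes that the lone array varies alike, so a call lost or gained can come from the standard error with little change in the value. *Xylt1* and *Xylt2*, the xylosyltransferases that put the first sugar on the core protein, were read differently by their probes. *Xylt2* had processed signals of 5758 and 5375 untreated and 1322 and 979 after OGD, a log2 fold change of -0.92 ± 0.12. Both OGD arrays were lower than both untreated arrays at this probe. The second *Xylt2* probe, which lies further upstream in the gene, read 373 and 402 untreated and 151 and 176 after OGD, 0.12 ± 0.17, and was not called.

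*Xylt1* had 4282 and 4745 untreated and 1656 and 1554 after OGD at its brightest probe, -0.12 ± 0.094, which was not called. Its upstream probe read 50.9 and 43.9 untreated and 33.5 and 34.6 after OGD, 0.90 ± 0.14, and was called higher. The 4 probes are shown because the direction of both genes depended on which was read. In mm9, the first 30 bases, which are printed, lie at chr11:94525195-94525224 for the brightest *Xylt2* probe and at chr11:94526016-94526045 for the upstream one (minus strand). For *Xylt1* they lie at chr7:124817001-124817030 (brightest) and chr7:124811061-124811090 (upstream, plus strand).
Xylt2 brightest probe: ctgaagctcagtgcgaagtctgaaatatgc
Xylt2 upstream probe: tttctggtctgtggcaggattgtgtgccat
Xylt1 brightest probe: taccaaaaacaccacaggtgtacatagacg
Xylt1 upstream probe: aacagcctggagttccttcagccctgatcc

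*B4galt7* and *B3galt6* encode the galactosyltransferases of the linkage and *B3gat3* the glucuronosyltransferase that completes it. *B4galt7* had processed signals of 3801 and 3707 untreated and 1141 and 750 after OGD, -0.65 ± 0.17, while its upstream probe gave -0.17 ± 0.12 and was not called. *B3gat3* had 1493 and 1448 untreated and 458 and 406 after OGD, -0.40 ± 0.078. *B3galt6* gave 0.23 ± 0.090 and was not called. In *B4galt7* the 2 OGD arrays differed more than the untreated ones, with an SD of 0.29 beside 0.039.

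In chain elongation 1 of the 5 genes was called higher and 2 were called lower, beside 37.1% and 27.8% of all genes. *Ext1* and *Ext2* encode the partner subunits of the heparan sulfate polymerase. *Ext2* had processed signals of 144 and 162 untreated and 107 and 98.8 after OGD, 0.81 ± 0.095 relative to the 75th percentile. *Ext1* gave -0.17 ± 0.18 at its brightest probe and 1.15 ± 0.77 at the other, neither of which was called, and the groups overlapped. The subunits thus received different calls, although the difference between them was not tested.

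Of the 3 exostosin-like genes 2 were called lower. *Extl1* had processed signals of 378 and 408 untreated and 61.9 and 60.4 after OGD, or -1.31 ± 0.099 as log2 fold change, and with the normexp background the value was -0.61. *Extl2*, whose product can add N-acetylglucosamine to the linkage, had 9452 and 9993 untreated and 2033 and 1640 after OGD, -1.04 ± 0.088. For both genes each OGD array was below each untreated array. *Extl3*, which encodes the enzyme that adds the first N-acetylglucosamine of heparan sulfate, gave 0.22 ± 0.17 with overlapping groups and was not called. The values of *Extl3* and *Ext1* depended on the OGD array, with 0.43 and -0.39 without OGD replicate 2 and 0.013 and 0.048 without OGD replicate 1.

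**Figure D2:**
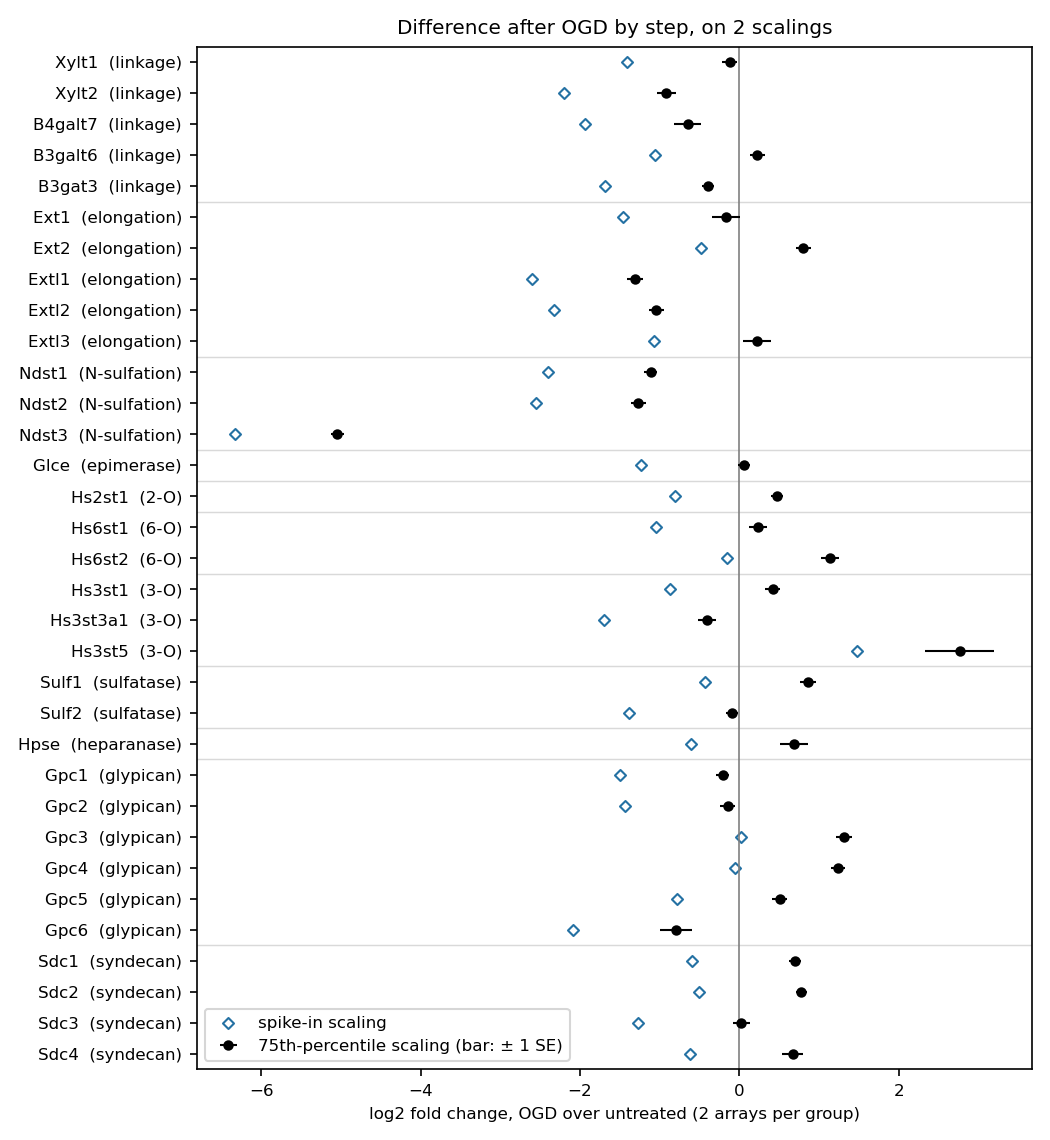
Log2 fold change (OGD over untreated, horizontal axis) of the 33 tested genes in the order of the biosynthetic steps; filled circles with bars are the values after 75th-percentile scaling ± 1 SE (2 arrays per group) and open diamonds the values after spike-in scaling. Each gene is shown at its brightest probe, and each diamond lies 1.29 to the left of its circle. All 3 tested N-deacetylase/N-sulfotransferases lie below 0 on both scales, though other *Ndst1* probes did not follow. Only *Hs3st5* and *Gpc3* lie above 0 on both, *Gpc3* at 0.028 after spike-in scaling.

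Of the 9 O-sulfotransferase genes 6 were tested, of which 4 were called higher and 1 lower, beside 37.1% and 27.8% of all genes. The median was 0.45, and -0.84 after spike-in scaling. Without *Hs3st5*, which was near background in untreated AECs, 3 of 5 were called higher, with a median of 0.42. Of the higher calls, those of *Hs2st1* and *Hs3st1* were lost without either untreated array (0.47 and 0.39 without replicate 1, 0.49 and 0.45 without replicate 2). *Glce*, the gene of the epimerase that precedes them, gave 0.057 ± 0.076 and was not called. *Hs2st1*, the sole 2-O-sulfotransferase gene, had processed signals of 1450 and 1491 untreated and 859 and 726 after OGD, 0.48 ± 0.077. Its raw signal was lower on both OGD arrays, and its scaled value was higher on both.

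Among the 6-O-sulfotransferases, *Hs6st2* had 217 and 224 untreated and 219 and 161 after OGD, 1.14 ± 0.12. *Hs6st1* gave 0.24 ± 0.11 at its brightest probe and -0.18 ± 0.26 at the other, and neither was called. *Hs6st3* was well above background on 1 of 4 arrays and was not tested. After spike-in scaling *Hs6st2* stood at -0.15.

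The 3-O-sulfotransferases add the rarest sulfate of the chain, on which binding of antithrombin depends for some of them. *Hs3st5* had processed signals of 4.31 and 9.68 untreated and 16.4 and 17.5 after OGD. It was well above background on 1 of the 2 untreated arrays and on both OGD arrays, and it was higher on both OGD arrays in raw signal as well as after scaling. It thus entered the fit through the OGD arrays alone, at signals close to background. The log2 fold change was 2.77 ± 0.43, with 2.19 without untreated replicate 1, 3.34 without untreated replicate 2 and 1.52 with the normexp background, and the methods' t-test did not call it. *Hs3st1* had 1111 and 1169 untreated and 599 and 578 after OGD, 0.42 ± 0.091. *Hs3st3a1* had 201 and 207 untreated and 58.5 and 60.5 after OGD, -0.40 ± 0.11, which turned to 0.15 with the normexp background. Its call was lost with the methods' t-test, with the replicate block and without the filter on dim probes. It was also lost without either untreated array (-0.42 and -0.39) and without OGD replicate 1 (-0.28). *Hs3st2* and *Hs3st3b1* were not well above background on any array.

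Of the enzymes that edit finished chains, *Sulf1*, whose product removes 6-O-sulfate outside the cell, had processed signals of 7730 and 8243 untreated and 6335 and 4962 after OGD, 0.86 ± 0.098, and its second probe gave 1.00 ± 0.099. Both probes were called higher. *Sulf2*, of the same function, gave -0.093 ± 0.075 and was not called, though it was called lower under quantile (-0.47) and spike-in scaling (-1.38). *Hpse*, the gene of heparanase, which cuts the chain, had 45.8 and 41.4 untreated and 33.5 and 21.9 after OGD, 0.69 ± 0.18. Its second probe was not well above background on either OGD array, and the mean over both probes was 0.43, at which the call was lost. The *Hpse* call was also lost without either untreated array (0.77 and 0.60), with the methods' t-test, without the filter on dim probes and with the percentile over bright probes (0.53). After spike-in scaling *Sulf1* stood at -0.42 and *Hpse* at -0.60.

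The core proteins carry the chains, glypicans through a lipid anchor and syndecans through a membrane-spanning domain. Of the 6 glypicans 3 were called higher and 1 lower, beside 37.1% and 27.8% of all genes, with a median of 0.18. *Gpc4* had processed signals of 2432 and 2509 untreated and 2290 and 2213 after OGD, 1.24 ± 0.090, and its second probe gave 0.88 ± 0.11. *Gpc3* had 517 and 500 untreated and 554 and 432 after OGD, 1.32 ± 0.099. The raw signals of *Gpc3* overlapped between the groups and those of *Gpc4* were lower on both OGD arrays, and after spike-in scaling *Gpc4* stood at -0.049 and *Gpc3* at 0.028. *Gpc5* had 57.2 and 53.0 untreated and 33.3 and 27.5 after OGD, 0.51 ± 0.092, a call that was lost without either untreated array (0.57 and 0.45).

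*Gpc6* was the 1 glypican called lower, with processed signals of 631 and 447 untreated and 125 and 111 after OGD. The untreated arrays differed from each other, with an SD of 0.36 beside 0.021 after OGD, and the log2 fold change was -0.80 ± 0.20. Its call was lost without untreated replicate 1 (-0.54), without OGD replicate 1 (-0.78), without OGD replicate 2 (-0.81), with the normexp background (-0.41) and with the methods' t-test. *Gpc1* gave -0.21 ± 0.084 and *Gpc2* -0.15 ± 0.090, and neither was called. *Gpc1* was called lower with limma's intensity trend (-0.21), normexp (-0.30), quantile scaling (-0.70), the percentile over bright probes (-0.36) and spike-in scaling (-1.49).

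Glypican genes also lie beside each other in the genome. In the RefSeq gene table *Gpc4* and *Gpc3* are neighbours on the X chromosome with 0 protein-coding genes between them, and *Hs6st2* lies 2 protein-coding genes away from *Gpc4*. All 3 were called higher, with 1.24, 1.32 and 1.14, beside 37.1% of all genes tested. After spike-in scaling *Gpc4*, *Gpc3* and *Hs6st2* stood at -0.049, 0.028 and -0.15. *Gpc5* and *Gpc6* are likewise neighbours on chromosome 14 with 0 protein-coding genes between them, with 0.51 and -0.80, and after spike-in scaling both were lower, at -0.78 and -2.09. *Ndst3* and *Ndst4* lie on chromosome 3 with 3 protein-coding genes between them, and *Ndst4* was not well above background. *Hs3st3b1* and *Hs3st3a1* lie on chromosome 11 with 1 protein-coding gene between them, and *Hs3st3b1* was not well above background.

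Of the 4 syndecans 3 were called higher and none lower, beside 37.1% and 27.8% of all genes, with a median of 0.68. Under quantile scaling, however, *Sdc2* (0.21) and *Sdc4* (0.27) lost the call. *Sdc2* had processed signals of 23315 and 23655 untreated and 16512 and 14691 after OGD, 0.78 ± 0.074. *Sdc1* had 763 and 753 untreated and 503 and 449 after OGD, 0.70 ± 0.076. *Sdc4*, which is found at focal adhesions, had 16764 and 13627 untreated and 9846 and 8745 after OGD, 0.67 ± 0.14. Its call was also lost without untreated replicate 2 (0.51), without OGD replicate 2 (0.66) and with the methods' t-test. *Sdc3*, the syndecan best known from the nervous system, gave 0.023 ± 0.11 with overlapping groups. In all 4 genes the raw signal was lower on both OGD arrays, and after spike-in scaling they stood between -1.27 and -0.51.

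Promoter letters were examined because hypoxia is part of OGD and the transcription factor HIF-1 recognises a short core. The letters ACGTG and GCGTG were searched on both strands in the 250 bases before the start in RefSeq promoters (GRCm38.p6). Promoters were matched for 28 members (32 promoters), of which 18 (56.2%) held at least 1 match, beside 38.6% of all 32851 promoters. ACGTG was in 21.9% of the members' promoters and 16.6% of all, and GCGTG in 40.6% and 28.2%. *Gpc3* held 4 matches, a number reached by 2.58% of all promoters. A match is a description of letters and no evidence of binding. A match was held by 8 of 12 promoters of members called higher and by 4 of 10 of members called lower, a difference that was not tested. *B4galt7* and *Hs3st3a1*, called lower, held 2 ACGTG each, and *Hs6st2*, *Hs3st1* and *Hs3st5*, called higher, held none. Shown are the neighbours *Gpc3* and *Gpc4* for their position and *Ndst2* and the first start of *Ndst3* for the fold changes above, and these 4 do not represent the members. They lie at chrX:52613975-52614224, chrX:52164924-52165173, chr14:20734563-20734812 and chr3:123672478-123672727, all on the minus strand, with matches in capitals (CACGC is GCGTG on the other strand).
Gpc3 promoter: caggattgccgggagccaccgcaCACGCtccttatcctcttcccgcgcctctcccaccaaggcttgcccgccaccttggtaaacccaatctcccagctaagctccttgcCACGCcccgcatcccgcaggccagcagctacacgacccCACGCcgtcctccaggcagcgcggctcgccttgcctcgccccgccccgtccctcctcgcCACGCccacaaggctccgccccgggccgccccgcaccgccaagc
Gpc4 promoter: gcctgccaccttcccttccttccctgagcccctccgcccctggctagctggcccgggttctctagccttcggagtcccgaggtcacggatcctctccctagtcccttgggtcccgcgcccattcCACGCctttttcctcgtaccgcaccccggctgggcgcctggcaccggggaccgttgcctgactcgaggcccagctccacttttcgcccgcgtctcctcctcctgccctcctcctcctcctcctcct
Ndst2 promoter: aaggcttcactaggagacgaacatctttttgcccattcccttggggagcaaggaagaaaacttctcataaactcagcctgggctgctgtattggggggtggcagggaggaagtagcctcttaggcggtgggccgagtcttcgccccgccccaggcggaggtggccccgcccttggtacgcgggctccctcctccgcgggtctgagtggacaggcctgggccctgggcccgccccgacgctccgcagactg
Ndst3 promoter: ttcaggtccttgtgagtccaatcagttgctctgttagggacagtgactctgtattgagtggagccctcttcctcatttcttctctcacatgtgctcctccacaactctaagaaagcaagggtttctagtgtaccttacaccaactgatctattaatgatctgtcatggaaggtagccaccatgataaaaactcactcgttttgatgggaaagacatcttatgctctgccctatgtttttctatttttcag

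Where a member had several probes well above background, some of them dim, the upstream probe gave the higher fold change. In 8 members the 2 outermost probes were both well above background on all 4 arrays, and in 8 of 8 the upstream probe had the higher log2 fold change. The difference ranged from 0.14 in *Sulf1* to 2.26 in *Ndst1*, with a median of 0.75, and was not tested in any gene. That of *Sulf1* was close to the SEs of its probes (0.099 and 0.098). In *Ext1* (1.32) and *Hs6st1* (0.42) 1 probe had a wide SE, of 0.77 and 0.26. Over all genes with such probes the upstream one was higher in 3605 of 4810 (74.9%), with a median difference of 0.36. The upstream probe was the dimmer in 6 of the 8 members and in 67% of all such genes. Among all genes the share was 74.0% where the upstream probe was dimmer and 76.9% where it was brighter. The outermost probes of *Gpc4* lie 460 bases apart on the genome and those of *Ext1* 122840 bases. The part of RNA integrity or transcript ends in these values was not tested.

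**Figure D3:**
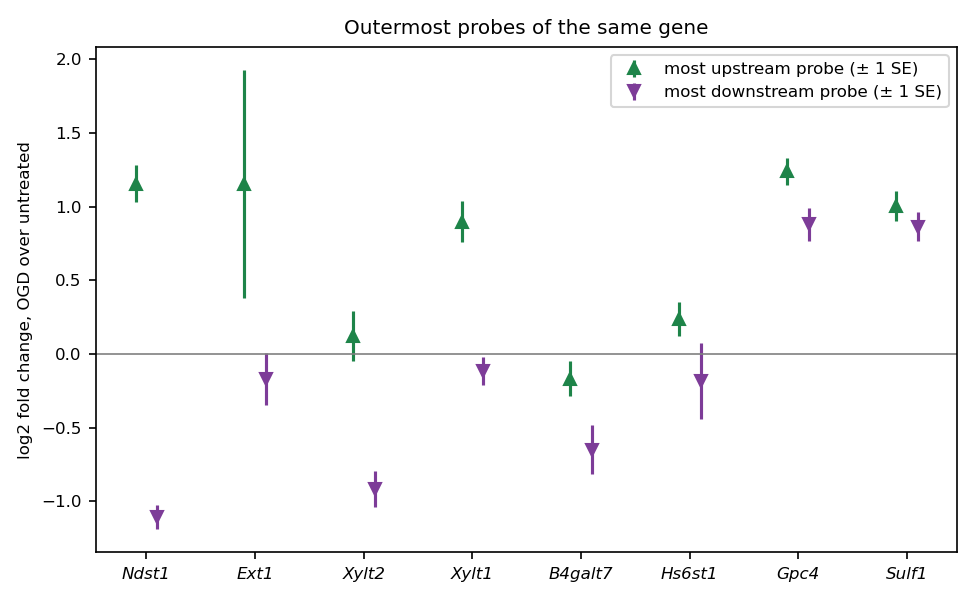
Log2 fold change (OGD over untreated, vertical axis) of the most upstream (triangles pointing up) and most downstream probe (triangles pointing down) of the 8 genes with outermost probes well above background on all 4 arrays; bars are ± 1 SE (2 arrays per group). The upstream probe is the higher in 8 of 8 genes, and in *Ndst1* the pair lies on opposite sides of 0 at 1.16 and -1.11.

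Genes of the same biochemistry that are no members were tested with limma as 7 lists of 77 genes. Of the 75 genes tested 35 rose, 19 fell and 21 did not pass, which is 72.0% called beside 64.8% of all genes, and the median was 0.28. After spike-in scaling 69 of the 75 were lower. The supply of sugar nucleotides and of PAPS, the sulfate donor, showed 10 genes that rose and 6 that fell among 19. *Ugdh*, whose enzyme makes UDP-glucuronic acid, the precursor of every glucuronic acid of the chain, rose by 1.31 ± 0.075 (limma adjusted p = 0.00112), and *Gfpt2*, of the hexosamine pathway, by 1.34 ± 0.095 (adjusted p = 0.00156). After spike-in scaling they stood at 0.025 and 0.047 and neither was called. *Slc35b4*, a nucleotide sugar transporter, gave -2.07 ± 0.075 (limma adjusted p = 0.000754).

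Among 5 other modifiers 2 rose and 1 fell. *Hs3st6*, another 3-O-sulfotransferase gene, had processed signals of 68.5 and 64.6 untreated and 131 and 102 after OGD and rose by 2.17 ± 0.10 (limma adjusted p = 0.000893). *Pxylp1*, which encodes the phosphatase acting on linkage xylose, gave -1.27 ± 0.11 (limma adjusted p = 0.00208), while *Fam20b*, the gene of the opposing kinase, gave 0.35 ± 0.085 (limma adjusted p = 0.0283), a call that was lost in 7 other settings, with adjusted p up to 0.186, while quantile and spike-in scaling turned the value to -0.062 and -0.94. Of 8 lysosomal enzymes of heparan sulfate breakdown 3 rose, among them *Sgsh* (0.79 ± 0.087), and 2 fell, *Arsg* (-0.65 ± 0.15) and *Gusb* (-0.45 ± 0.079). The calls of *Arsg* and *Gusb* were lost without either untreated array, and that of *Arsg* with the methods' t-test. With the mean over probes *Sgsh* turned to -0.26 and *Gusb* to 0.17, and under quantile scaling *Sgsh* was 0.087 (limma adjusted p = 0.423). Of 10 other heparan sulfate carrying cores and partners 5 rose, with *Srgn* (1.12 ± 0.076) and *Sdcbp* (1.06 ± 0.078), a syndecan binding protein, at the top, and *Nrp1* fell (-0.54 ± 0.075), a call that was lost with normexp (-0.095) and without either untreated array (-0.55 and -0.54).

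Chondroitin and dermatan sulfate share the linkage with heparan sulfate. Of the 15 genes for their synthesis that were tested 6 rose and 5 fell, with a median of 0.0075. *Chst12*, a chondroitin 4-O-sulfotransferase gene, had processed signals of 1164 and 1098 untreated and 70.3 and 47.9 after OGD, -2.91 ± 0.15 (limma adjusted p = 0.00102). *Chst14*, which encodes the dermatan 4-O-sulfotransferase, had 3933 and 3972 untreated and 285 and 221 after OGD, -2.60 ± 0.097 (limma adjusted p = 0.000759). *Chst11*, another chondroitin 4-O-sulfotransferase gene, rose by 1.19 ± 0.091 and *Ust*, a uronyl 2-O-sulfotransferase gene, by 0.85 ± 0.081.

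Of 9 chondroitin sulfate cores 5 rose, with *Bgn* at 1.63 ± 0.11 and *Ptprz1* at 0.95 ± 0.076, and *Vcan* fell (-0.47 ± 0.079), though it turned to 0.042 with the mean over probes and lost the call without either untreated array (-0.43 and -0.51). *Ptprz1* lost the call under quantile scaling (0.22) and turned to -0.34 after spike-in scaling. After spike-in scaling *Bgn* (0.34) and, among the FGF genes, *Fgfr2* (0.26) were no longer called. Among 9 FGF ligands and receptors, which signal with heparan sulfate as a cofactor, 4 rose and 3 fell. *Fgf2* rose by 1.63 ± 0.089 (limma adjusted p = 0.00105) and *Fgfr2* by 1.55 ± 0.13, while *Fgf1* (-0.65 ± 0.085) and *Fgfr4* (-1.05 ± 0.14) fell. *Fgf1* lost the call without either untreated array (-0.66 and -0.64), and *Fgfr4* with the methods' t-test. These lists were compared with no other list.

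**Figure D4:**
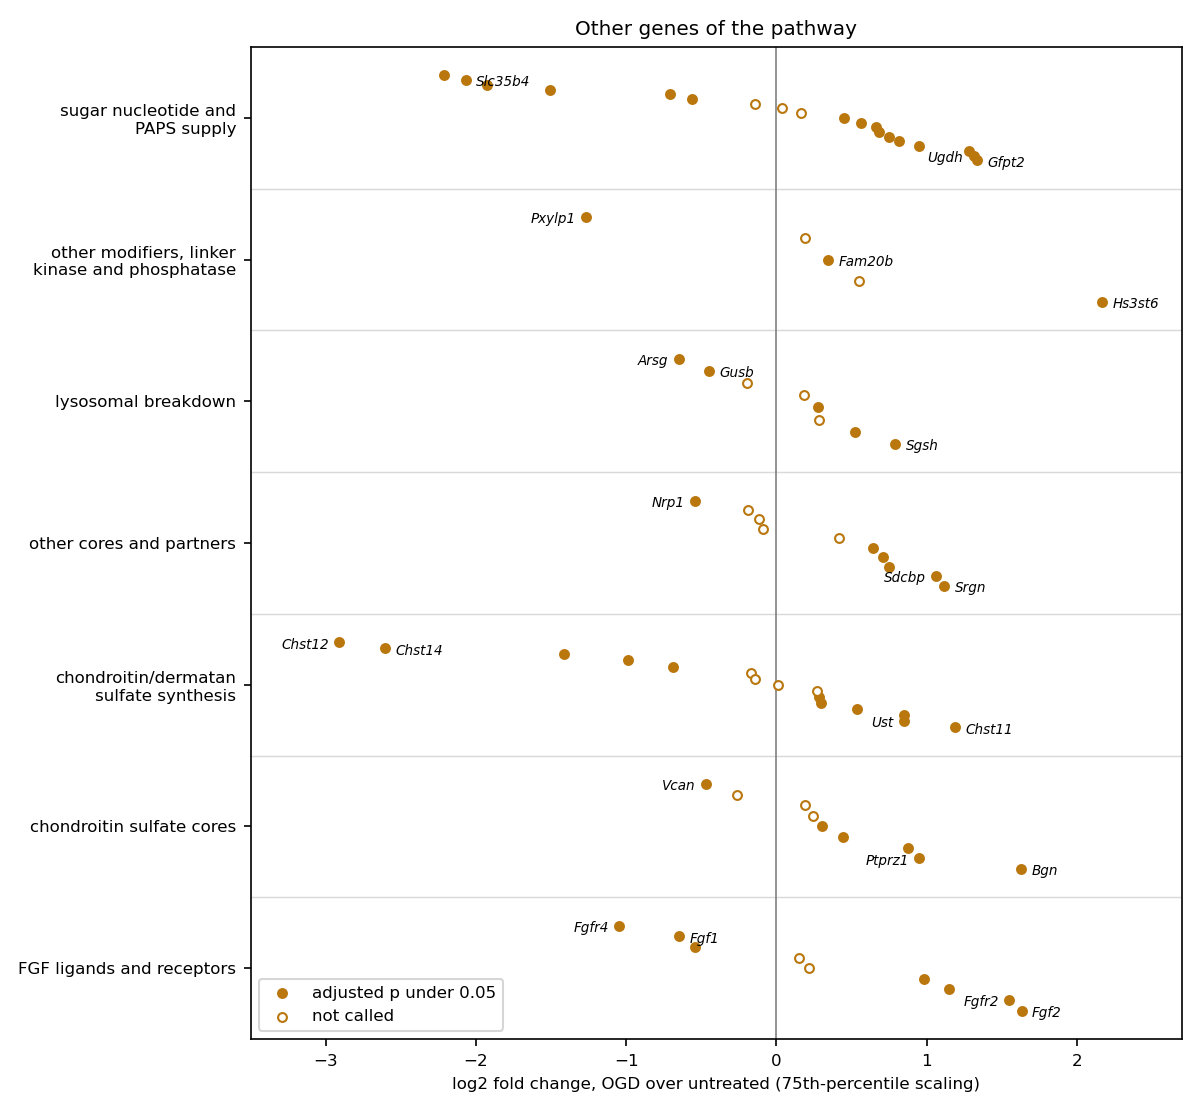
Log2 fold change (OGD over untreated, 75th-percentile scaling, horizontal axis) of the 75 tested genes of 7 lists that are not members of the set, 1 list per band; filled circles had an adjusted p under 0.05 in limma and open circles did not. Genes lie on both sides of 0 in each list, from *Chst12* at -2.91 to *Hs3st6* at 2.17.

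Cell type markers were read beside these values, as the sum of a list in multiples of the 75th percentile of the array. All 12 astrocyte markers passed the background test on each of the 4 arrays, with sums of 169 and 149 untreated and 222 and 226 after OGD. Without *Aldoc* the sums were 119 and 114 untreated and 153 and 160 after OGD. Of the 12 markers 6 were called higher and 2 lower, *Sox9* (-1.52) and *Fgfr3* (-0.54). After spike-in scaling all 12 were lower, as were all 11 tested oligodendrocyte and all 7 NG2 glia markers. The sum of the NG2 glia markers was 23.9 and 23.1 untreated and 39.4 and 38.7 after OGD, of which *Ptprz1* made up 19.6 and 19.0 untreated and 37.7 and 37.0 after OGD. Of the 7 markers 4 were called lower, among them *Olig2* (-2.50) and *Pdgfra* (-1.27), and 2 higher, *Ptprz1* and *Cspg4* (0.88), the gene of NG2 itself. The oligodendrocyte sum was 38.8 and 36.3 untreated and 43.8 and 45.5 after OGD, and 29.4 and 29.5 against 26.5 and 25.7 without *Ermn*. Of the 11 tested markers 4 were called higher and 3 lower, namely *Olig2*, *Sox10* (-0.76) and *Olig1* (-0.49).

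The microglial sum was 2.33 and 2.04 untreated and 6.74 and 6.52 after OGD. Without *Cd68* (3.14) it was 1.78 and 1.48 untreated and 1.90 and 1.66 after OGD, with 3 of 7 tested markers called higher and *Tmem119* (-0.88) lower. The 7 of 8 meningeal fibroblast markers measured on all arrays summed to 55.2 and 46.5 untreated and 80.6 and 63.7 after OGD, and without *Fn1* to 16.2 and 14.6 untreated and 15.8 and 13.5 after OGD. Of the 8 fibroblast markers 2 were called higher and 2 lower, *Pdgfrb* (-2.42) and *Col3a1*. The neuronal sum was 31.3 and 29.3 untreated and 31.7 and 34.8 after OGD, and the endothelial sum lay between 1.62 and 2.02 on all arrays. Of the 8 neuronal markers 6 were well above background on all 4 arrays, *Rbfox3* on 2 and *Slc17a7* on none, with 3 called higher and 2 lower. Of the 6 endothelial markers 4 passed the background test on every array, and *Cldn5* and *Tek* on none, with *Kdr* (-0.40) called lower. The part of these cell types in the values of the heparan sulfate genes was not tested.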

How the data were processed

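Gene expression was measured on 4 Agilent 1-colour arrays, 2 of untreated AECs and 2 of AECs after 15 h of OGD, grouped by their labels. The authors deposited scanner files with linear signal intensity per spot, background-corrected and processed by Agilent Feature Extraction (version 11.5.1.1 in the submitters' processing notes), and the same files hold quality flags as 0 or 1. A deposited table of the series holds the same linear processed intensity (largest difference 0.0), and no value of the authors' own comparisons was used. Here, outlier spots were left out, spots of a probe were averaged, and log2 intensity minus the 75th percentile of the array was computed.

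A probe entered the fit where the scanner marked it well above background on both untreated or both OGD arrays, which left 28262 of 39429. Fold changes and standard errors came from limma 3.58.1 in R 4.3.3 with Benjamini-Hochberg adjustment over these probes, and a call is an adjusted p under 0.05. With 2 arrays per group the number of arrays limits the precision. The procedure was tested on simulated data. A gene took the value of its probe with the highest mean. Genes named outside the set were, per list, the called genes that rose most and fell most (up to 2 each) among those well above background throughout, and some genes that this rule names are not reported here. Members, lists and tests were chosen with earlier results of these data known, including the relation between upstream and downstream probes.

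Same-numbered arrays did not deviate together (correlation of deviations -0.034), so the replicate numbers were not used as pairs. Alternatives were spike-in scaling, quantile and median scaling, the percentile over bright probes, normexp background with an offset of 50, other filters, the mean over probes, the methods' t-test, fold limits, a replicate block and leaving out each array. Further ones were limma's intensity trend with a robust fit, outlier spots kept and the deposited table of the series. Sequences are from the scanner files (mm9) and RefSeq (GRCm38.p6), and all 37 members matched the RefSeq gene table.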

Additional observations from a re-analysis of the deposited data

How the results depend on the processing

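Over 17 alternative settings and 56 named genes (33 members and 23 others), 834 of 951 values kept their direction and their side of the threshold, 65 lost the call, 13 gained one and 39 reversed. The call and direction of *Extl1*, *Extl2*, *Ndst2*, *Ndst3* and *Xylt2* were kept in all 17 settings, which do not include the fold limits, with *Ndst3* between -6.34 and -2.92, as were those of 6 of the 23 other genes, *Chst12*, *Chst14*, *Fgf2*, *Hs3st6*, *Pxylp1* and *Slc35b4*. *Xylt2* lay between -2.20 and -0.40, the latter with the mean over probes. The numbers below are log2 fold changes, and the cause was not tested unless stated.

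Spike-in scaling lowers every value by 1.29 by construction, and with its probes differing by -0.75 to 0.28 the sign of a value near 0 is not settled. It left 1 member called higher and 29 lower, the 1 being *Hs3st5*, which entered the fit through the OGD arrays alone. Of the other pathway genes it left 2 and 63. It reversed *Ext2* (-0.48), *Extl3* (-1.07), *Glce* (-1.23), *Hs2st1* (-0.81), *Hs3st1* (-0.87), *Hs6st1* (-1.05), *Hs6st2* (-0.15), *Sulf1* (-0.42), *B3galt6* (-1.06), *Hpse* (-0.60), *Gpc4* (-0.049), *Gpc5* (-0.78), *Sdc1* (-0.59), *Sdc2* (-0.51), *Sdc3* (-1.27), *Sdc4* (-0.62), *Fam20b* (-0.94), *Sgsh* (-0.50), *Srgn* (-0.17), *Sdcbp* (-0.23), *Chst11* (-0.10), *Ust* (-0.44) and *Ptprz1* (-0.34), ended the calls of *Gpc3* (0.028), *Ugdh* (0.025), *Gfpt2* (0.047), *Bgn* (0.34) and *Fgfr2* (0.26), and called *Sulf2*, *Xylt1*, *Gpc1*, *Gpc2* and *Ext1* lower. The mean over probes reversed *Ext1* (0.49), *Xylt1* (0.39), *Sgsh* (-0.26), *Gusb* (0.17) and *Vcan* (0.042). Quantile scaling reversed *Extl3* (-0.35), *Sdc3* (-0.052) and *Fam20b* (-0.062) and left 23 other pathway genes called higher. Under it *Sdc2* (0.21), *Sdc4* (0.27), *Sgsh* (0.087) and *Ptprz1* (0.22) lost the call and *Sulf2* (-0.47) and *Gpc1* (-0.70) gained one. The 75th percentile over bright probes reversed *Glce* (-0.096) and *Sdc3* (-0.13), ended the calls of *Hs3st1* (0.27), *Hpse* (0.53) and *Fam20b* (0.19) and gave *Gpc1* (-0.36) one, and normexp reversed *Hs3st3a1* (0.15), *Gpc2* (0.36) and *Sdc3* (-0.032) and ended the calls of *Gpc6* (-0.41) and *Nrp1* (-0.095) and gave *Gpc1* (-0.30) one, while limma's intensity trend gave *Gpc1* and *B3galt6* one. Without the filter *Hs3st3a1*, *B4galt7*, *Hpse* and *Fam20b* were no longer called. The mean over probes ended those of *Ndst1* (-0.066) and *Hpse* (0.43). Requiring a 2-fold change left 4 members higher and 5 lower (*Xylt2* not among them), and 11 and 9 other genes. A 10-fold limit left 0 members higher and 1 lower, and 0 and 0 other genes, since no fold change among the others reached it.

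Leaving out 1 array leaves its group with a lone array, assumed to vary like the other group, which alone gives the spread, so calls can change with the standard error. It gave between 8 and 13 members called higher and between 6 and 10 lower, and between 22 and 36 and between 12 and 20 of the other genes. Without untreated replicate 1 the calls of *Hs2st1* (0.47), *Hs3st1* (0.39), *Hs3st3a1* (-0.42), *B4galt7* (-0.62), *B3gat3* (-0.36), *Hpse* (0.77), *Gpc5* (0.57) and *Gpc6* (-0.54) were lost, and without untreated replicate 2 those of *Hs2st1* (0.49), *Hs3st1* (0.45), *Hs3st3a1* (-0.39), *B4galt7* (-0.68), *B3gat3* (-0.43), *Hpse* (0.60), *Gpc5* (0.45) and *Sdc4* (0.51). Of the other genes *Fam20b*, *Arsg*, *Gusb*, *Nrp1*, *Vcan* and *Fgf1* lost the call without either untreated array, at 0.39, -0.61, -0.45, -0.55, -0.43 and -0.66 without replicate 1. Without OGD replicate 1 *Hs3st3a1* (-0.28) and *Gpc6* (-0.78) lost it, and without OGD replicate 2 *Gpc6* (-0.81), *Sdc4* (0.66) and *Fam20b* (0.31), while *Ext1* (-0.39) and *Extl3* (0.43) gained one. The uncalled *Ext1* turned to 0.048 and *Sdc3* to -0.0019 without OGD replicate 1, and *Sdc3*, which was at most 0.13 with 1 array left out, to -0.080 without untreated replicate 2. With the replicate number as a block, 13 members were called higher and 9 lower, and 31 and 19 other genes, with *Hs3st3a1* and *Fam20b* losing the call. The numbers do not pair the arrays by the labels, so this is no paired result. The methods' t-test with adjustment called 9 members higher and 7 lower and did not call *Hs3st1*, *Hs3st3a1*, *Hs3st5*, *B4galt7*, *Hpse*, *Gpc6* and *Sdc4*, nor *Fam20b*, *Arsg* and *Fgfr4*. The stricter filter on dim probes left no value for *Hs3st5*. Signals near background, as for *Hs3st5* and *Hpse*, limit what can be said of dim members.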
